A study of Bos taurus with 16 samples.

Results

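The respiratory chain of bovine oocytes and embryos was examined through the nuclear genes of its subunits. Members were all loci whose name begins with NDUFA, NDUFB, NDUFC, NDUFS, NDUFV, UQCR, COX4 to COX8 or ATP5, or is SDHA, SDHB, SDHC or SDHD, and assembly factors named NDUFAF were left out. This gave 87 of the 27393 loci in the deposited data, under 84 names. By textbook assignment 39 loci belonged to complex I, 4 to complex II, 8 to complex III, 15 to complex IV and 15 to complex V. NDUFA4, now counted with complex IV, and its relative NDUFA4L2 were listed apart (2 loci). The other 4 loci share a prefix but are not subunits, namely COX4NB (now EMC8), ATP5S (now DMAC2L) and both loci of ATP5SL (now DMAC2).

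Oxidative phosphorylation takes place in the inner mitochondrial membrane. Complex I takes electrons from NADH and complex II takes them from succinate, complex III passes them to cytochrome c, and complex IV passes them to oxygen. Complexes I, III and IV pump protons, and complex V, the ATP synthase, uses the resulting gradient to make ATP. The embryo inherits its mitochondria from the oocyte, and cleavage, compaction and blastocyst formation all draw on ATP.

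Each of the 16 samples was an individual oocyte or whole embryo of Bos taurus, matured or developed in vivo, whose RNA was amplified in 2 rounds and sequenced on the SOLiD platform. There were 2 samples at each of 8 stages: mature oocyte (MII), embryos of 2, 4, 8 and 16 cells (2C, 4C, 8C and 16C), early morula (EM), compact morula (CM) and blastocyst (BL). No group carried a treatment or an altered genotype, and breed and age were not given in the labels. Since the study places embryonic genome activation (EGA) between 4C and 8C, the 6 samples of MII, 2C and 4C were compared with the 10 samples of the later stages.

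The deposited values are read counts divided by a size factor of the sample, and the reads behind them could be recovered. Total reads ran from 607672 to 3379426 per sample, with a median of 1347534.5. Levels below are reads per 1000000 (CPM), so 3 reads, taken as the smallest detectable number, stood for between 0.888 and 4.94 CPM. CPM is not divided by transcript length, so levels were compared between samples and not between genes. A share of reads within a set of genes also depends on transcript length, so only its difference between stages was compared. A whole embryo was measured, so fewer transcripts per cell and fewer cells with the transcript cannot be told apart, nor can a change in total RNA be seen.

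The stage labels were checked against marker genes. The summed level of 12 oocyte markers was between 8114 and 11087 CPM in MII, between 3490 and 3948 CPM in 4C and between 27.5 and 39.6 CPM in BL, while BMP15 was listed at 0. The 8C embryos differed widely in this sum, which was 108 CPM in the first replicate but 1716 CPM in the second. The 14 blastocyst markers summed to between 614 and 806 CPM before EGA and between 2612 and 6054 CPM after it, with the highest sum in 8C replicate 1 and not in BL. POU5F1, a pluripotency factor, carried most of the later sum, with 5926 CPM at 1 locus in 8C replicate 1. Within the list KRT8, an epithelial keratin, was at 525 and 503 CPM in BL and at or under 102 CPM elsewhere, while ATP1B1, a sodium pump subunit, was between 301 and 531 CPM before EGA and between 6.15 and 22.0 CPM after it. SOX2, TEAD4 and IFNT were not highest in BL, and CDX2, a trophectoderm factor, was at 0 in both BL samples. Of the other lists, cumulus and granulosa cell markers summed to between 564 and 1987 CPM before EGA and between 385 and 875 CPM after it, and STAR carried most of these reads. Blood markers reached at most 12.4 CPM, and 4 of 5 sperm marker loci were listed at 0. The most read locus took between 7.44% and 27.0% of the reads before EGA and between 1.54% and 5.90% after it. The part of these differences in the results below was not tested, except where a value without a library is given.

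Of the 87 members, 12 were listed at 0 in every sample. SDHA and SDHD of complex II, NDUFA1, NDUFA10, NDUFAB1, NDUFB11 and NDUFS6 of complex I, and COX7B and COX8B of complex IV lay in a run of 2578 consecutive loci that were all at 0, so nothing was measured for these 9. COX4I2, COX6A2 and the second ATP5SL locus were at 0 among loci that had reads. COX6C, a small subunit of complex IV, had 1 read in all. Subunits encoded by mitochondrial DNA were not matched by name and were not analysed here.

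**Figure D1:**
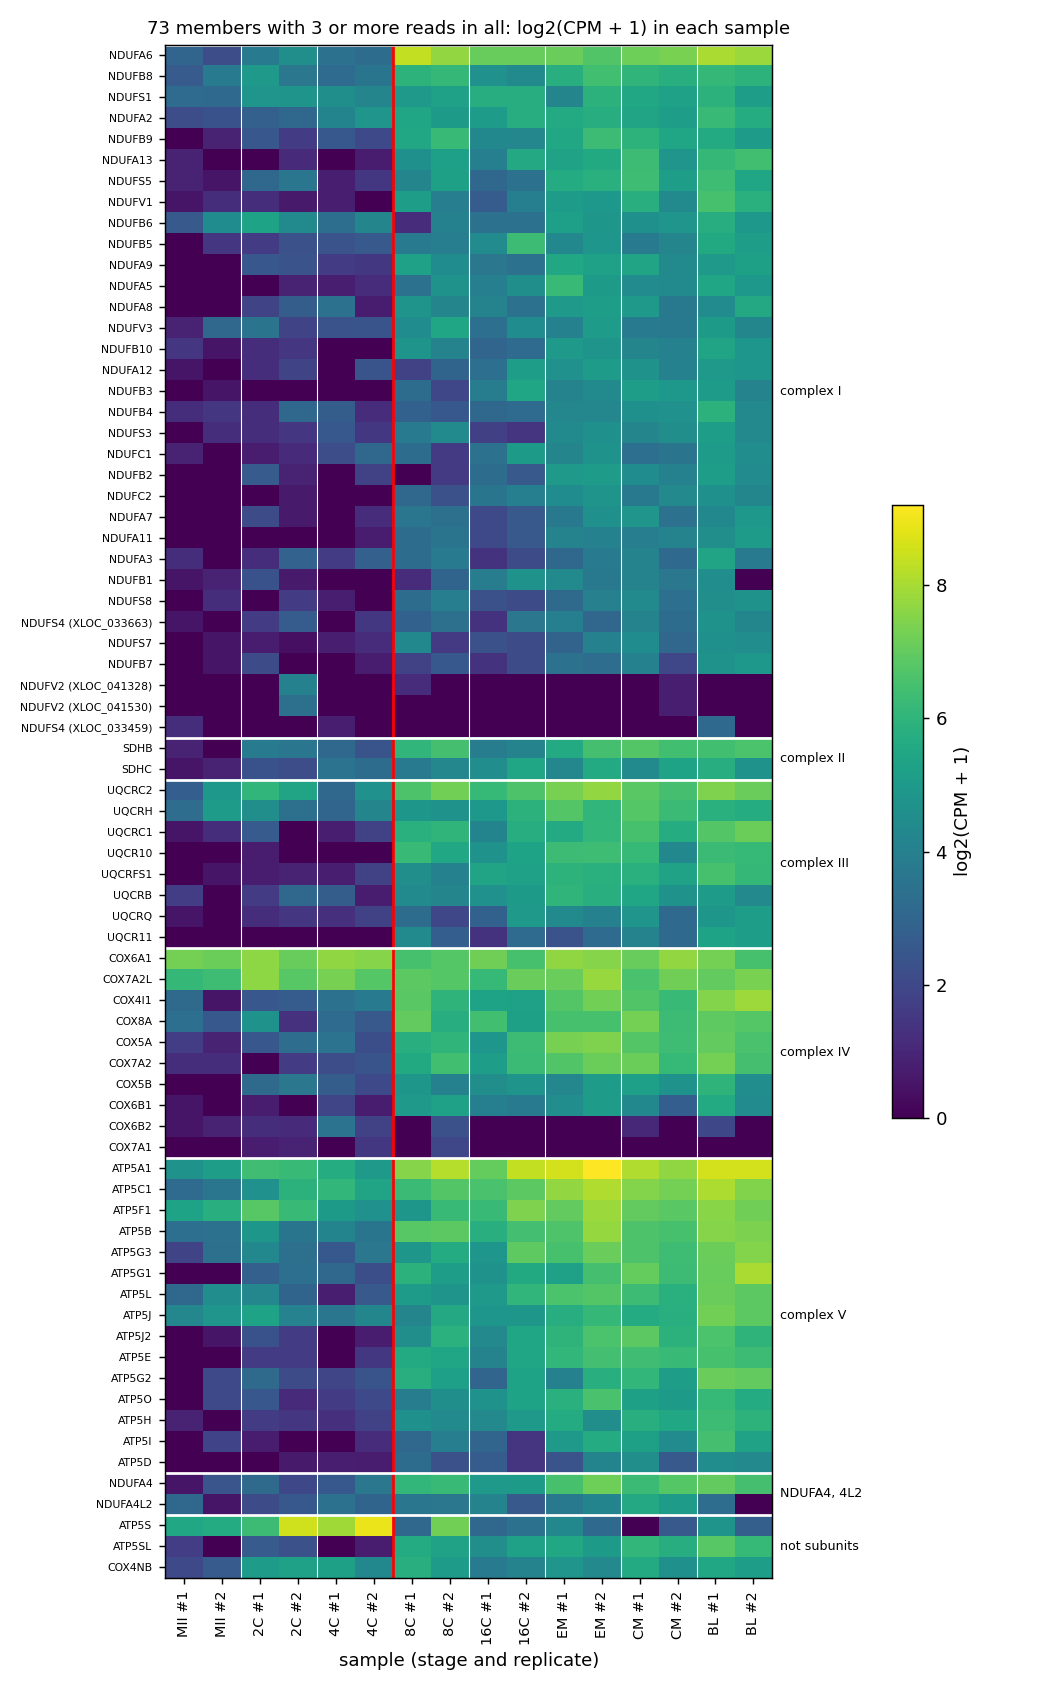
Level of 73 members with 3 or more reads in all, as log2(CPM + 1) by colour, with members in rows grouped by complex and the 16 samples in columns. The red line marks EGA between 4C and 8C; most rows turn from dark to light at this line, while COX6A1 and COX7A2L are light in every sample and ATP5S is light to its left.

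Abundance of most subunits changed over development. The stage effect passed the test (limma, Benjamini-Hochberg adjusted p under 0.05) in 63 of the 69 members that could be tested in the model of 8 stages, against 66.7% of the 9670 loci tested. COX6A1, COX7A2L, NDUFS1, NDUFB6, NDUFV3 and NDUFA4L2 did not pass. Of the members with reads, 40 had their highest stage mean in BL, 17 in EM, 6 in CM, 4 in 8C, 4 in 16C, 2 in 4C and 2 in 2C. The number of members with a mean over 50 CPM was 2 in MII, 32 in EM and 35 in BL. Neither of these counts was made over all loci, so a late highest mean cannot be called particular to the members.

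The summed level of the 83 subunit loci followed the same order. It was 485 ± 86.2 CPM in MII, 962 ± 200 in 2C and 753 ± 65.9 in 4C (SD, n = 2 here and for every stage mean below). It was 2770 ± 85.7 CPM in 8C, 2321 ± 757 in 16C, 4484 ± 834 in EM, 3628 ± 637 in CM and 5165 ± 573 in BL. The lowest of the 10 samples after EGA, 16C replicate 1 at 1786 CPM, lay above the highest of the 6 before it, 2C replicate 1 at 1103 CPM.

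The 5 complexes differed in how far their sums moved. Complex I had a mean of 127 ± 60.8 CPM before EGA (SD, n = 6) and 962 ± 293 CPM after it (SD, n = 10), a ratio of 7.60. The ratio was 9.23 for the SDHB and SDHC loci of complex II, 8.29 for complex III and 6.45 for complex V. Complex IV stood lowest, from 322 ± 89.5 CPM to 722 ± 198 CPM, a ratio of 2.24. COX6A1 and COX7A2L held between 87.8% and 96.4% of the complex IV reads of a sample before EGA and between 28.9% and 51.4% after it. Without this pair the sum of complex IV went from 31.7 ± 15.3 to 448 ± 159 CPM, a ratio of 14.1. No like pair was left out of the other complexes. These ratios are on CPM, which scales by total reads, whereas the tests below use the deposited size factors. Over all tested loci the median log2 change was 0.66 with total reads and 0.23 with those factors.

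**Figure D2:**
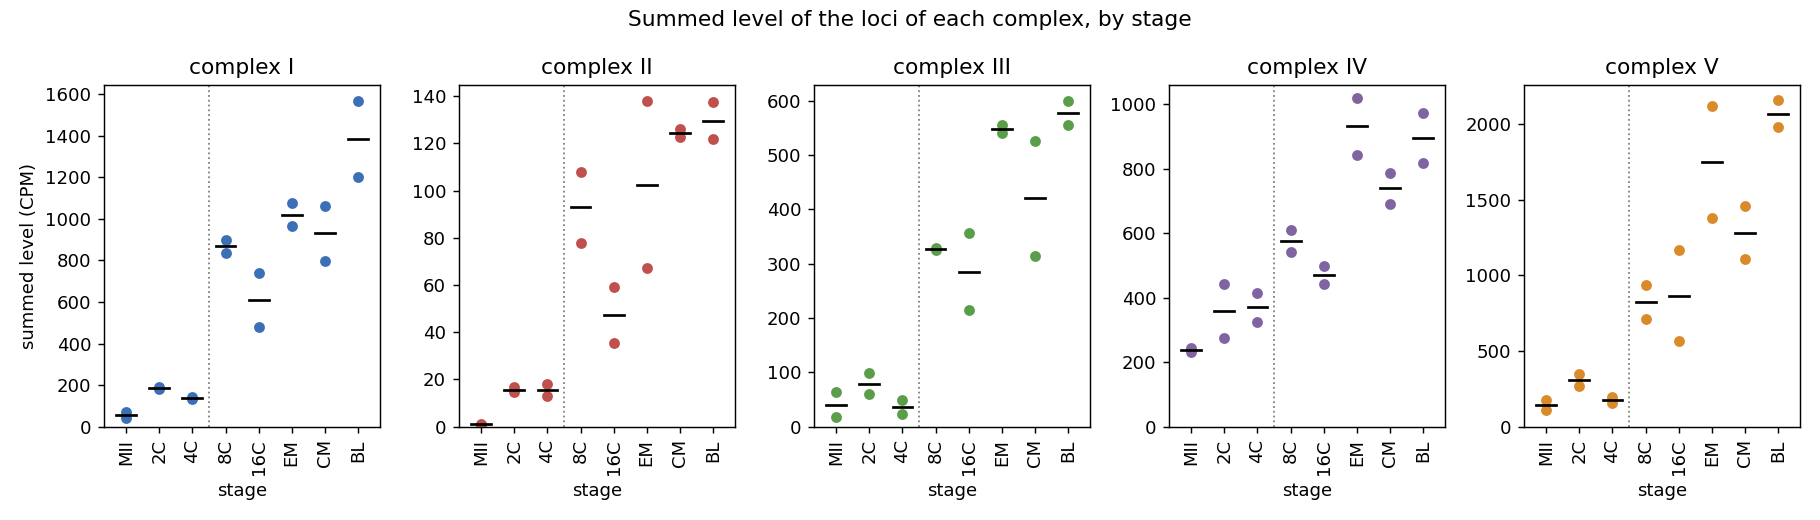
Summed level of the loci of each complex in CPM (vertical axis from 0, different in each panel) against stage, with a point for each sample and a bar for the mean of 2. The dotted line marks EGA; the 10 later samples lie above the 6 earlier ones in complexes I, II, III and V, and in complex IV the lowest later sample, at 443 CPM, lies just under the highest earlier one.

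The comparison across EGA asked which subunits changed when the embryonic genome becomes active. It could test 66 members, and 21 had too few reads, 12 of them none. Transcripts of 58 members were higher after EGA, 2 were lower and 6 did not pass the test. Over all 6910 loci tested, 36.9% were higher and 29.9% lower. The median log2 change was 3.06 over the tested members and 0.23 over all tested loci, and scaling by total reads moved the latter to 0.66. In 41 of the 66 tested members the lowest later sample exceeded the highest earlier one, against 18.4% of all loci tested. The filter on low reads keeps a locus that has reads in 1 period alone, so these counts describe the tested members and not the whole list. Members near 0 before EGA were tested through their later reads, and their fitted sizes depend on the pseudocount. At least 3 reads in each of the 6 earlier samples were present in 18 tested members, of which 11 rose and 2 fell. Of all 4680 loci tested with that many early reads, 18.5% were higher and 43.7% lower.

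**Figure D3:**
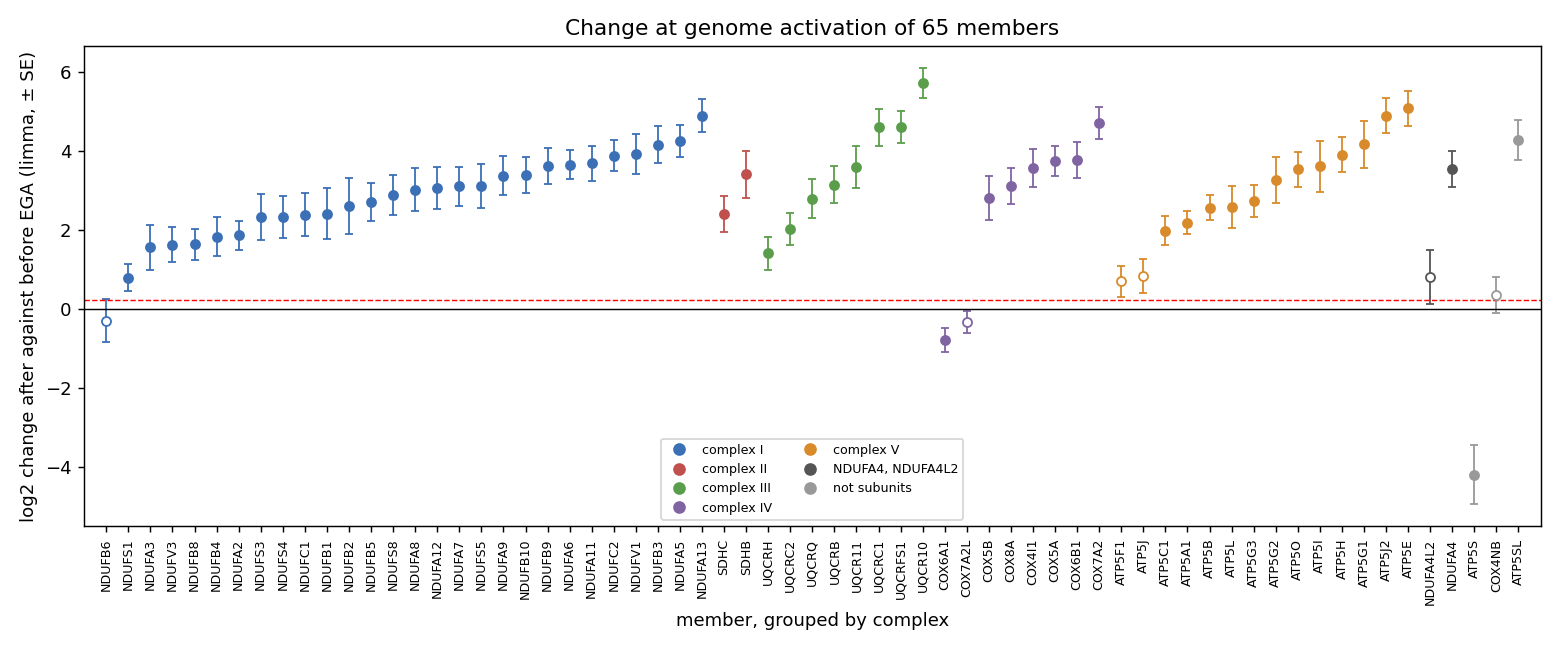
Log2 change after against before EGA (limma on log2 of the deposited value + 1) with its standard error for 65 of the 66 members tested, grouped by complex and ordered within each. Filled points passed an adjusted p of 0.05, the solid line is no change and the dashed red line the median of all tested loci at 0.23; 57 filled points lie above 0, and those of COX6A1 and ATP5S below it.

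Complex I is the largest enzyme of the chain, with core subunits that carry the electron path and accessory subunits around them. Of its 29 tested loci, 28 rose across EGA (all loci 36.9%), with a median log2 change of 2.89. All 5 tested core loci were among them, and 23 of the 24 accessory loci, with a median of 3.06 over the 24.

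NDUFV1, a core subunit at the NADH binding site, had between 0 and 1.33 CPM before EGA, with a median of 0.64. It had between 5.41 and 91.3 CPM after EGA, with a median of 31.0. The groups did not overlap, and the log2 change was 3.93 ± 0.51 (SE, limma adjusted p = 8.1e-07). NDUFV1 had 9 reads in the 6 earlier samples, so it was tested through its later reads. Its fitted size depends on the pseudocount and ran from 2.55 to 5.05 over 28 other settings.

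NDUFA6, an accessory subunit that led complex I in reads, had 7.09 and 3.51 CPM in MII, 12.6 and 22.2 in 2C, 9.72 and 8.60 in 4C, and then 329 and 207 in 8C. It stayed between 104 and 261 CPM in the 8 later samples. Its level was highest at 8C, unlike that of most members, and its log2 change across EGA was 3.66 ± 0.37 (limma adjusted p = 3.2e-08). NDUFA13, an accessory subunit also known as GRIM19, had the largest fitted log2 change of complex I with a pseudocount of 1, from a median of 0.31 CPM (0 to 1.18) to 42.2 CPM (14.7 to 83.7), a log2 change of 4.91 ± 0.42 (limma adjusted p = 2.9e-09). By the ratio of mean CPM NDUFB3 (294), NDUFC2 (159) and NDUFA11 (141), each with 1 or 2 reads before EGA, stood above NDUFA13 (104), and with so few early reads this order is not firm. NDUFB8, an accessory subunit often used as an antibody target for complex I, moved less, from a median of 11.3 CPM (5.32 to 30.0) to 60.4 CPM (19.7 to 84.7). Its log2 change was 1.64 ± 0.39 (limma adjusted p = 0.00085), and 2C replicate 1 overlapped the later samples.

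NDUFS1, the largest core subunit, showed the smallest rise of complex I. It had 8.42 and 7.89 CPM in MII, 26.6 and 26.0 in 2C, 22.9 and 17.2 in 4C, and between 17.2 and 59.2 CPM later. The log2 change was 0.80 ± 0.34 (limma adjusted p = 0.042), the groups overlapped, and the call was lost in 14 of 28 other settings, among them without either MII replicate. NDUFB6, an accessory subunit, did not pass the test, with between 4.87 and 39.9 CPM before EGA and between 1.24 and 52.1 CPM after it. Its log2 change was -0.29 ± 0.55 (limma adjusted p = 0.65), and it turned positive with scaling by total reads (0.17) or without 8C replicate 1 (0.025).

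Complex II, succinate dehydrogenase, also belongs to the citrate cycle. Both of its measured genes rose. SDHB, the iron-sulfur subunit, had 0.89 and 0 CPM in MII, 12.6 and 11.2 in 2C, 7.64 and 4.30 in 4C, and 65.6 and 89.5 in 8C. It then had 13.9 and 16.5 CPM in 16C and between 49.0 and 107 CPM from EM on, so that the 16C pair lay just above the earlier stages. SDHC, a membrane anchor, had 0.44 and 0.88 CPM in MII, 3.99 and 3.55 in 2C, 10.4 and 8.60 in 4C, and between 12.4 and 52.1 CPM later. The log2 changes across EGA were 3.42 ± 0.59 for SDHB (limma adjusted p = 3.3e-05) and 2.41 ± 0.46 for SDHC (limma adjusted p = 9.4e-05), and in both the groups did not overlap.

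Complex III, the cytochrome bc1 complex, had reads on all 8 of its loci. All 8 were tested and rose (all loci 36.9%), with a median log2 change of 3.38. UQCR10, a small subunit, was nearly absent before EGA. It had 1 read in the 6 earlier samples together (2C replicate 1) and between 18.6 and 81.4 CPM in the later ones, or 628 reads. It was tested only through its later reads, its fitted log2 change depends on the pseudocount, and the ratio of pooled CPM was 722 with an exact 95% counting interval from 129 to 28580. UQCR11, another small subunit, had no read before EGA and 139 reads after it, which makes it at least 53.3-fold higher when 3 reads over the earlier group are taken as the limit.

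UQCRC1, a core protein of complex III, had between 0 and 5.32 CPM before EGA and between 17.0 and 139 CPM after it, a log2 change of 4.61 ± 0.46 (limma adjusted p = 2.7e-08). UQCRC2, its partner core protein, was present earlier, with 5.76 and 29.4 CPM in MII, 65.9 and 40.5 in 2C and 7.64 and 24.0 in 4C. It then had between 70.3 and 207 CPM, and its log2 change was 2.03 ± 0.41 (limma adjusted p = 0.00016). The core partners thus started from different levels of their own later range. UQCRH, the hinge protein, rose least of the 8, from a median of 13.3 CPM (6.94 to 32.9) to 58.1 CPM (25.0 to 109), with overlapping groups and a log2 change of 1.41 ± 0.43 (limma adjusted p = 0.0062). UQCRC2 overlaps PDZD9 and UQCRH overlaps LRRC41 in the annotation.

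Complex IV, cytochrome c oxidase, held loci that rose and loci that did not. Of 8 tested loci, 6 rose (all loci 36.9%), COX6A1 fell and COX7A2L did not pass the test. COX7A2 had the largest fitted change, with 1.33 and 1.31 CPM in MII, 0 and 2.07 in 2C, 3.47 and 4.30 in 4C, and between 34.8 and 153 CPM later. Its log2 change was 4.73 ± 0.40 (limma adjusted p = 2.7e-09). COX4I1, the ubiquitous form of the largest nuclear subunit, went from a median of 6.65 CPM (0.44 to 12.9) to 105 CPM (37.8 to 229), and COX8A from 6.62 CPM (1.48 to 24.6) to 91.3 CPM (36.2 to 154). The log2 changes were 3.58 ± 0.48 for COX4I1 (limma adjusted p = 1.4e-06) and 3.11 ± 0.46 for COX8A (limma adjusted p = 4.9e-06), with no overlap in either. NDUFA4, listed apart, went from a median of 4.62 CPM (0.44 to 11.7) to 82.5 CPM (30.9 to 145), a log2 change of 3.55 ± 0.45 (limma adjusted p = 6.0e-07).

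COX6A1, the ubiquitous form of subunit VIa, was among the most read members before EGA. It had 153 and 141 CPM in MII, 200 and 132 in 2C, 204 and 183 in 4C, and 91.6 and 108 in 8C. It then had 148 and 92.2 CPM in 16C, 205 and 186 in EM, 134 and 207 in CM, and 153 and 91.0 in BL. The groups overlapped widely. The log2 change on the deposited scale was -0.78 ± 0.30 (limma adjusted p = 0.028), and the call was lost with scaling by total reads (-0.30, limma adjusted p = 0.41), without both 8C embryos (-0.74, limma adjusted p = 0.0503) and without MII replicate 1 (-0.72, limma adjusted p = 0.060) or 2 (-0.70, limma adjusted p = 0.058).

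COX7A2L, which takes part in joining complexes III and IV into supercomplexes, did not pass the test. It had 69.1 and 81.1 CPM in MII, 198 and 112 in 2C, 160 and 109 in 4C, and between 70.3 and 219 CPM later, with a median of 132. The log2 change was -0.32 ± 0.28 (limma adjusted p = 0.31), and 0.16 with scaling by total reads. Neither COX6A1 nor COX7A2L passed the test of the stage effect (limma adjusted p = 0.22 and 0.93).

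Complex V, the ATP synthase, had reads on all 15 of its loci. Of the 14 tested across EGA, 12 rose (all loci 36.9%), with a median log2 change of 3.01 over the 14. Within the catalytic F1 part all 4 tested loci rose, and within the stalks and membrane part 8 of 10. ATP5A1, the alpha subunit, had a median of 42.9 CPM before EGA (24.8 to 82.5) and 309 CPM after it (131 to 590). ATP5B, the catalytic beta subunit, went from 11.0 CPM (9.31 to 28.0) to 106 CPM (55.6 to 213), and ATP5C1, the gamma subunit, from 32.3 CPM (8.42 to 67.4) to 164 CPM (76.7 to 274). None of the 3 overlapped between groups, and the log2 changes were 2.20 ± 0.30, 2.57 ± 0.31 and 1.99 ± 0.36 (limma adjusted p = 1.5e-06, 4.1e-07 and 5.4e-05). ATP5E, the small epsilon subunit, had the largest fitted change of complex V, from a median of 0.92 CPM (0 to 2.07) to 69.9 CPM (16.2 to 91.3), a log2 change of 5.09 ± 0.44 (limma adjusted p = 3.6e-09). With 13 reads before EGA it was tested through its later reads, and its fitted size depends on the pseudocount.

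ATP5F1, the b subunit of the peripheral stalk, and ATP5J, the F6 coupling factor, did not pass the test. ATP5F1 had 39.9 and 53.9 CPM in MII, 112 and 72.8 in 2C, 31.2 and 24.0 in 4C, 28.5 and 72.1 in 8C, and between 74.2 and 224 CPM later. ATP5J had between 11.1 and 39.3 CPM before EGA, 17.3 and 46.2 in 8C, 27.8 and 28.0 in 16C, between 49.2 and 69.8 in EM and CM, and 149 and 116 in BL. In both, an 8C sample lay within the earlier range, and the highest sample came later. The log2 changes were 0.71 ± 0.39 for ATP5F1 (limma adjusted p = 0.11) and 0.84 ± 0.43 for ATP5J (limma adjusted p = 0.086). Scaling by total reads brought both past the threshold (1.18, limma adjusted p = 0.021; 1.31, limma adjusted p = 0.014), as did leaving out 8C replicate 1 for ATP5F1 (0.88, limma adjusted p = 0.036) and MII replicate 2 for ATP5J (1.05, limma adjusted p = 0.039). Both also passed with the same changes when stage means were contrasted in the model of 8 stages (limma adjusted p = 0.030 and 0.024), which called 63 members higher, and ATP5F1 passed without both 8C embryos (0.96, limma adjusted p = 0.023). In the annotation of ARS-UCD2.0 ATP5J overlaps GABPA, and reads of the 2 genes may not be told apart.

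ATP5S, which shares the prefix but is not a subunit, was the other member called lower. It had 43.9 and 49.5 CPM in MII, 78.5 and 376 in 2C and 234 and 493 in 4C. It then had 7.42 and 149 CPM in 8C and at most 26.5 CPM in the 8 later samples. The high 8C value came from replicate 2, the sample with 1716 CPM of oocyte markers. The log2 change was -4.19 ± 0.75 (limma adjusted p = 4.7e-05), and it stayed between -4.68 and -3.40 and past the threshold in all 28 other settings tried. In the annotation ATP5S overlaps CDKL1. ATP5SL, the other gene listed apart, rose from a median of 1.42 CPM (0 to 5.32) to 47.2 CPM (22.4 to 113), and COX4NB did not pass the test (log2 change 0.36 ± 0.47, limma adjusted p = 0.50). COX4NB overlaps COX4I1 in the annotation.

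**Figure D4:**
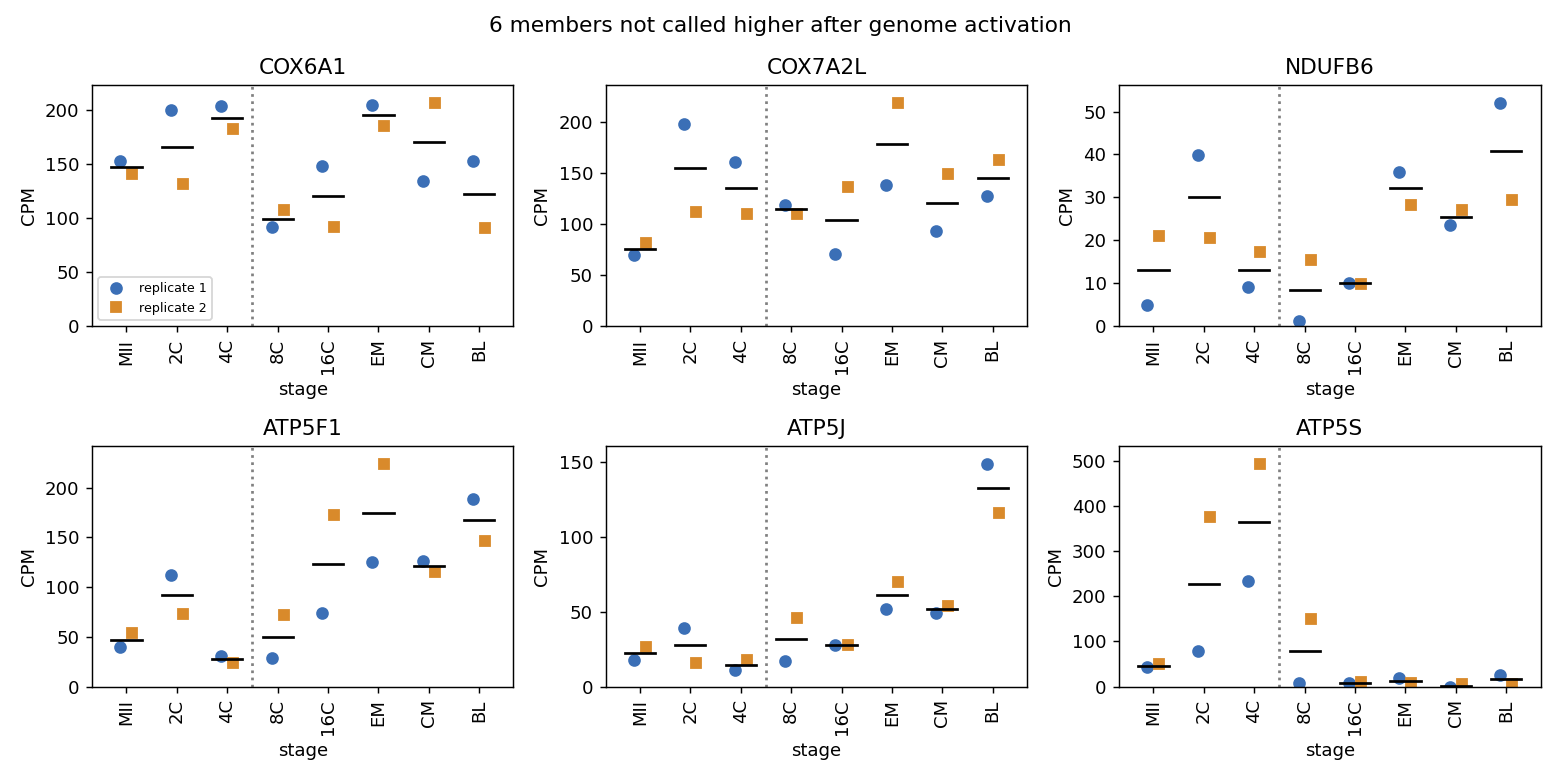
Level in CPM against stage for COX6A1, COX7A2L, NDUFB6, ATP5F1, ATP5J and ATP5S, with circles for replicate 1, squares for replicate 2, bars for the mean of 2 and the dotted line at EGA. COX6A1 and COX7A2L keep to between 69.1 and 219 CPM in the 16 samples, ATP5J is highest in BL at 149 and 116 CPM, and ATP5S is highest in 4C replicate 2 at 493 CPM.

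Pairs of alternative subunits of complex IV were compared as shares of reads. COX6B2, an isoform known from testis, held 28 of the 35 reads of COX6B1 and COX6B2 before EGA, or 80.0% (exact 95% interval 63.1% to 91.6%). After EGA it held 8 of 272, or 2.94% (1.28% to 5.71%). COX6B2 lay between 0.44 and 10.4 CPM before EGA, and its own reads were too few to be tested, and it overlaps GARIN5B in the annotation, while COX6B1, the ubiquitous form, rose by 3.78 ± 0.47 on the log2 scale (limma adjusted p = 4.4e-07). COX6B1 had 7 reads in the 6 earlier samples and between 5.71 and 48.1 CPM later. It was thus tested through its later reads, and its fitted size depends on the pseudocount. Over both periods these intervals cover counting error only, since amplified copies of a molecule were not told apart.

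COX7A2L held 98.3% of the reads of COX7A2 and COX7A2L before EGA (1425 of 1450; exact 95% interval 97.5% to 98.9%) and 58.7% after it (1488 of 2535; 56.8% to 60.6%). Its share was between 96.2% and 100% in the 6 earlier samples and between 40.3% and 71.6% in the 10 later ones. COX7A1, the heart and muscle form, had 7 reads before EGA and 3 after it, the latter all in 8C replicate 2. COX4I2 was at 0 beside 1179 reads of COX4I1 after EGA, with an exact 95% interval for its share up to 0.312%. COX6A2 was at 0 beside 1659 reads of COX6A1 after EGA, with an interval up to 0.222%.

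The c subunit of the ATP synthase rotor has 3 genes that encode the same mature protein, ATP5G1, ATP5G2 and ATP5G3. ATP5G1 had no read in either MII sample, between 3.69 and 9.17 CPM in 2C and 4C, 59.4 and 33.7 CPM in 8C, and 134 and 261 CPM in BL. ATP5G2 had a median of 3.16 CPM before EGA (0 to 7.99) and 46.4 CPM after it (6.95 to 136), and ATP5G3 9.56 CPM (2.66 to 18.6) and 94.5 CPM (27.8 to 178). All 3 genes rose, with log2 changes of 4.17 ± 0.60, 3.28 ± 0.58 and 2.75 ± 0.41 (limma adjusted p = 3.6e-06, 4.4e-05 and 5.6e-06). ATP5G3 held 28 of 35 reads of the 3 in MII, or 80.0% (exact 95% interval 63.1% to 91.6%). Its share did not move one way after that, with 48.8% in 2C, 31.5% in 8C, 53.9% in 16C, 52.6% in EM and 32.8% in BL (29.6% to 36.2%). ATP5G1 held 0 of 35 in MII, which allows up to 8.57%, and 39.2% in BL (35.8% to 42.7%). Since the genes are alike in sequence, reads could be split between them in ways the sources used here do not describe.

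**Figure D5:**
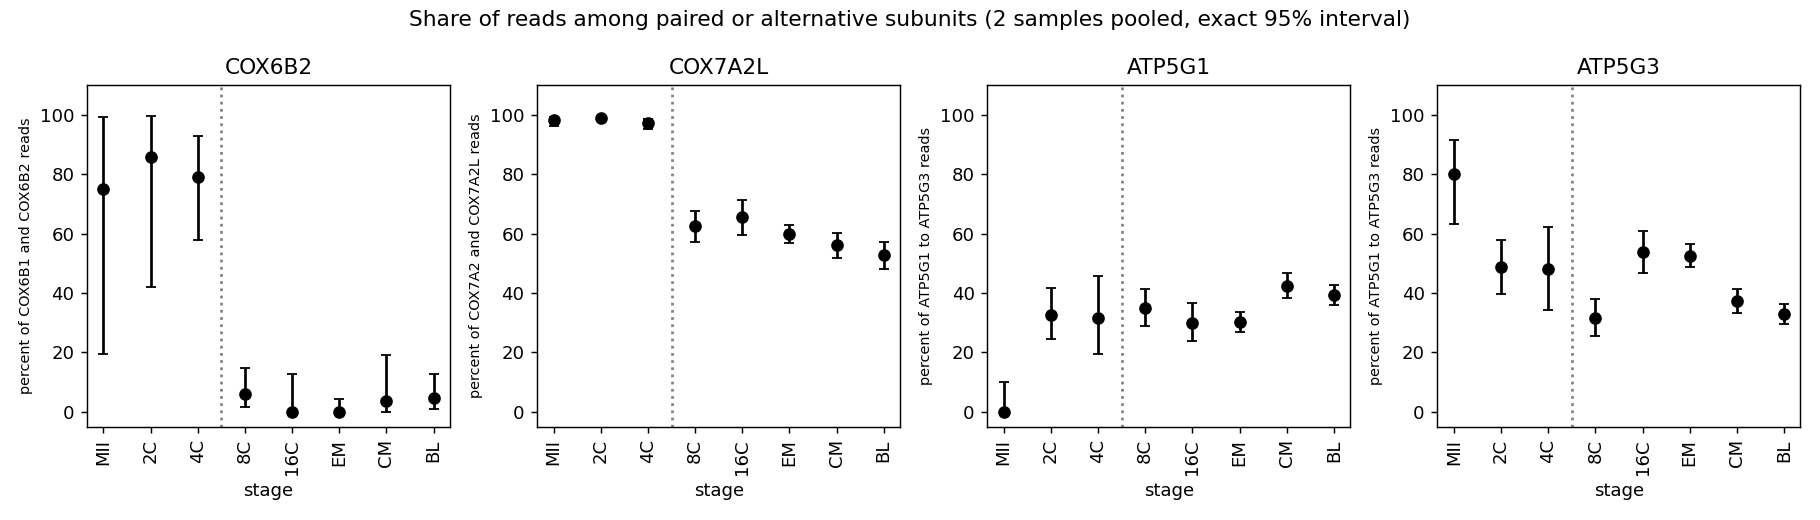
Percent of the reads of a set of alternative subunits that fell on COX6B2, COX7A2L, ATP5G1 and ATP5G3 at each stage, with the 2 samples pooled and exact 95% binomial intervals that cover counting error only. The dotted line marks EGA; COX6B2 lies at 75.0% to 85.7% before it and at 5.97% or less after it, and ATP5G1 goes from 0% in MII to 32.5% in 2C.

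Pairs of stages placed the changes in time. They come from the model of 8 stages and share samples with the comparison across EGA, so they are not independent of it. Between MII and 4C, 5 members were higher in 4C, against 6.48% of the 9670 loci tested, and 1 was lower, against 2.19%. Both counts, out of 69 tested members, were near the shares over all loci and are no result about the members as a set. Among the 5 were ATP5G1 (log2 change 3.02 ± 0.64, limma adjusted p = 0.014), COX5B (2.70 ± 0.69, limma adjusted p = 0.028), SDHC (2.47 ± 0.68, limma adjusted p = 0.038) and SDHB (2.36 ± 0.61, limma adjusted p = 0.028). ATP5L, the g subunit of the ATP synthase, was lower, from 7.53 and 21.9 CPM in MII to 0.69 and 4.92 CPM in 4C (log2 change -2.99 ± 0.73, limma adjusted p = 0.023). None of these calls held without MII replicate 2, without 4C replicate 1 or without 4C replicate 2, and the values without them had the same sign. COX5B had no read in MII and 7.99 and 11.5 CPM in 2C.

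Between 4C and 8C, 44 of the 69 tested members were higher in 8C and 24 did not pass the test. Over all loci tested 17.7% were higher and 19.1% lower. The median log2 change was 2.70 over the members and -0.08 over all loci. By complex, 18 of 31 loci were higher in complex I, 1 of 2 in complex II, 6 of 8 in complex III, 6 of 8 in complex IV and 11 of 15 in complex V. The 4 largest fitted values belonged to members with few or no reads in 4C, so their sizes depend on the pseudocount. UQCR10 had 0 and 0 reads in 4C and 61 and 46 in 8C. ATP5SL and ATP5J2 each had 0 and 1 reads in 4C, and ATP5E had 0 and 3. In 8C there were 40 and 40 reads of ATP5SL, 18 and 60 of ATP5J2, and 39 and 43 of ATP5E. SDHC, by contrast, had 10.4 and 8.60 CPM in 4C and 12.4 and 18.3 CPM in 8C and did not pass the test (0.62 ± 0.68, limma adjusted p = 0.50). ATP5S was the 1 member called lower (-3.30 ± 1.20, limma adjusted p = 0.041), a call lost in 17 of 26 other settings, among them without 8C replicate 1 (-1.34, limma adjusted p = 0.47). Leaving out single samples gave between 30 and 45 members higher in 8C.

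Between 8C and BL, NDUFB2 was the 1 member called higher in BL, against 6.44% of all loci tested, and limma called 0 lower, against 3.63%. At an unadjusted p under 0.05 there were 15 higher and 1 lower of the 69, against 15.1% and 9.6% of all loci tested, and edgeR and DESeq2 called 0 in either direction. The fitted value was higher in BL for 57 of the 69 tested members, with a median log2 change of 0.78 over the members and 0.13 over all loci. NDUFB2, an accessory subunit of complex I, had 0 and 1.92 CPM in 8C, 8.50 and 4.94 in 16C, 29.4 and 32.7 in EM, 21.5 and 15.7 in CM, and 34.4 and 20.5 in BL. Its log2 change was 4.00 ± 0.92 (limma adjusted p = 0.013), lost without 8C replicate 1 (3.14, limma adjusted p = 0.057), BL replicate 1 (3.68, limma adjusted p = 0.085) or BL replicate 2 (4.33, limma adjusted p = 0.073). Its annotation overlaps BRAF. The median log2 change was 0.81 over the tested loci of complex I, 0.42 for II, 0.68 for III, 0.33 for IV and 1.36 for V, and these were not tested against each other. The sum of complex I was 867 ± 42.6 CPM in 8C and 1383 ± 261 CPM in BL, and that of complex V 826 ± 157 and 2068 ± 126 CPM.

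Other genes of the pathway were examined as lists across EGA, where 36.9% of all tested loci were higher and 29.9% lower. With so few loci a list, a count near these shares is no result about the list. Of the electron carriers, 2 of 4 tested loci rose, near the share over all loci, namely CYC1, cytochrome c1 of complex III (log2 change 4.20 ± 0.55, limma adjusted p = 1.1e-06), and ETFB of the electron transfer flavoprotein (3.93 ± 0.44, limma adjusted p = 1.3e-07). Of the assembly factors, 12 of 21 tested loci rose and 3 fell (all loci 36.9% and 29.9%), with a median log2 change of 1.32. NDUFAF1, an early assembly factor of complex I, went from 1846 ± 1342 to 491 ± 320 CPM (-2.33 ± 0.60, limma adjusted p = 0.0018), and TTC19, which acts on complex III, from 968 ± 723 to 370 ± 123 CPM (-1.29 ± 0.50, limma adjusted p = 0.028). NDUFAF1 overlaps NUSAP1 and TTC19 overlaps ZSWIM7 and ADORA2B, so part of these reads may belong to the neighbours.

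Of the proteins that exchange ATP and phosphate with the cytosol, 3 of 5 tested loci rose (all loci 36.9%) and VDAC1, an outer membrane channel, fell (-1.65 ± 0.47, limma adjusted p = 0.0040). SLC25A3, the mitochondrial phosphate carrier, went from 0.27 ± 0.48 to 166 ± 70.4 CPM and was called higher, with a fitted size that depends on the pseudocount since it was near 0 before EGA. Of the citrate cycle and pyruvate dehydrogenase loci, 8 of 14 rose and 2 fell, against 36.9% and 29.9% of all loci. The E1 subunits of pyruvate dehydrogenase went opposite ways, with PDHB higher (5.83 ± 0.43, limma adjusted p = 3.3e-10) and PDHA1 lower (-1.54 ± 0.36, limma adjusted p = 0.00075). PDHB was at 1.24 ± 1.27 CPM before EGA, so its fitted size depends on the pseudocount.

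Of the regulators of mitochondrial biogenesis, 2 of 10 tested loci were higher and 4 lower, near the shares over all loci (36.9% and 29.9%), with a median log2 change of -0.36. TFAM, which packages and transcribes mitochondrial DNA, rose from 0.52 ± 0.60 to 54.6 ± 17.4 CPM, with a fitted size that likewise depends on the pseudocount. PPARGC1A, a coactivator of mitochondrial genes, fell from 53.6 ± 19.9 to 4.51 ± 10.9 CPM (-5.04 ± 0.69, limma adjusted p = 2.0e-06), and TFB1M, a mitochondrial rRNA methyltransferase, from 1176 ± 375 to 63.5 ± 33.4 CPM (-4.80 ± 0.41, limma adjusted p = 2.9e-09). GABPA, a subunit of nuclear respiratory factor 2, was higher (1.24 ± 0.38, limma adjusted p = 0.0064) and its partner GABPB1 lower (-1.41 ± 0.46, limma adjusted p = 0.011). TFB1M overlaps TIAM2 and CLDN20, TFAM overlaps ZNF239 and PDHA1 overlaps MAP3K15, so these values may hold reads of the neighbours.

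The ribosomal proteins, another large set of subunits, were set beside the members. Of the mitochondrial ribosomal proteins, 42 of 60 tested loci rose across EGA and 2 fell, with a median log2 change of 2.05. Of the cytosolic ribosomal proteins, 76 of 86 rose and 3 fell, with a median of 3.60. Over all loci 36.9% rose and 29.9% fell. The difference of these lists from the respiratory chain was not tested.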

How the data were processed

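Individual oocytes and embryos were sequenced by the authors after RNA amplification in 2 rounds. The submitters' processing notes name cutadapt, FastQC, TopHat, Cufflinks and HTSeq; the genome build, tool versions and the handling of reads with several matches are not given in the sources used here. The authors deposited a signal per locus, the count of reads divided by a size factor of the sample. Dividing each sample's values by the step that 1 read is worth gave whole reads for 100% of the values above 0 (tolerance 0.01). Amplification copies molecules unevenly, so intervals and floors cover counting error only. Total reads ran from 607672 to 3379426.

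Members were found by name and sorted into complexes from textbook knowledge. Overlapping genes were taken from the RefSeq annotation of ARS-UCD2.0, where all 84 names matched and 23 overlapped another gene. Tests used limma 3.58.1 in R 4.3.3 (moderated, trend) after adding a pseudocount of 1 and taking log2, over loci kept by filterByExpr of edgeR 4.0.16, with Benjamini-Hochberg adjustment over all loci at 0.05. Log2 changes of loci with few reads are understated. The stage effect and the 3 pairs of stages came from a model of 8 stages, the comparison across EGA from 2 groups. The p-values from the model of 8 stages measure the spread between individual oocytes or embryos of a stage. Those from the 2 groups across EGA also take in the differences between the stages of a period. Whether samples shared a donor was not stated. The tests were also run on simulated counts whose stages differed only by planted changes, and the outcome is not given here. That run does not give error rates for these data.

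Named with values were the 2 loci with most reads of each complex, the largest called rise and fall in each, members called lower, SDHA to SDHD, the isoforms of complex IV and the ATP5G genes. The genes NDUFB6, ATP5F1, ATP5J, NDUFA4, NDUFA4L2, COX4NB, ATP5SL, NDUFS1, NDUFV1, NDUFB2, ATP5L, ATP5B, COX5B, UQCRC1, COX6B1, COX4I1, COX8A, UQCR11, NDUFV3, ATP5J2, NDUFB3, NDUFC2, NDUFA11, NDUFS7, NDUFB7, NDUFV2, ATP5D, COX6C and those named from the pathway lists were added after their values were seen. The values of 1 member are not reported here, although counts and sums include it. Members and lists were chosen with earlier results of these data known. Alternatives changed the scaling (TMM or total reads), the pseudocount (0.5 or 5), the tool (edgeR, or DESeq2 1.42.0, each on recovered reads) or the filter (none), blocked on replicate number, left out each sample, contrasted stage means across EGA in the model of 8 stages, left out both 8C embryos, tested 2 stages alone or summed loci of 1 name. Leaving out 2C replicate 2, the deepest sample, together with 8C replicate 2 was chosen after seeing the data. Shares and figures used Python 3.11.15.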

Additional observations from a re-analysis of the deposited data

Results flagged for a closer look

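In 9 of 75 groups tested, 1 sample lay far from the others of its period, where chance alone gives about 1 in 20 groups. Each period mixes stages, so a stage that differs can be picked out in the same way.

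Before EGA, NDUFB8 stood at 30.0 CPM in 2C replicate 1, where the next sample had 13.1 CPM, and COX8A stood at 24.6 CPM in the same sample, where the next had 9.31 CPM. In 4C replicate 1 the level of COX6B2 was 10.4 CPM, above the next value of 2.46 CPM, and that of COX6B1 was 2.78 CPM, above 0.67 CPM; the latter is 4 reads.

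After EGA, ATP5S stood at 149 CPM in 8C replicate 2 and at most at 26.5 CPM in the other samples, and COX7A1 had 2.89 CPM in the same sample, 3 reads, and 0 elsewhere. In this sample oocyte markers summed to 1716 CPM, against 108 CPM in the other 8C embryo, and their part in both values was not tested. In BL, ATP5G1 stood at 261 CPM in replicate 2 (next 134 CPM), COX5B at 62.9 CPM in replicate 1 (next 35.9 CPM) and ATP5SL at 113 CPM in replicate 1 (next 70.5 CPM).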

How the results depend on the processing

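The 58 members higher across EGA, the 63 with a stage effect and the 44 higher in 8C than in 4C stayed within 1.5 times under all alternatives tried. Members lower across EGA numbered 1 with total reads or without both 8C embryos, and 1 to 2 with samples left out (1 without either MII sample). Leaving out 2C replicate 2 and 8C replicate 2 together gave 61 higher and 2 lower across EGA. Members higher in 4C than in MII numbered 8 with total reads, 1 with a pseudocount of 5, 3 with edgeR, 2 with these stages alone and 0 to 6 with samples left out (0 without MII replicate 2 or either 4C sample); members lower numbered 0, with total reads or these stages alone, 2 with DESeq2 and 0 to 1 with samples left out. Members lower in 8C than in 4C numbered 0 with a pseudocount of 0.5, no filter, edgeR, DESeq2 or these stages alone, and 0 to 3 with samples left out (3 without 8C replicate 2). Members higher in BL than in 8C numbered 2 with total reads, 6 with a pseudocount of 5, 0 with edgeR, DESeq2 or these stages alone and 0 to 2 with samples left out (0 without either BL sample).

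The log2 ratio of summed levels across EGA was 2.93 for complex I. As a mean over its 39 loci of log2 values the change was 2.17. That mean enters the 5 loci listed at 0 as unchanged, although nothing was measured for them. For complex II the ratio of sums was 3.21, or 2.68 without SDHB. The mean over loci was 1.46 there, with SDHA and SDHD, which were not measured, entered as unchanged. The median log2 change over SDHB and SDHC alone was 2.92. The ratio of sums was 3.05 for complex III and 3.70 without UQCRC2, and 1.16 for complex IV and 1.92 without COX6A1. The sign turned for COX7A2L with total reads (0.16) and for NDUFB6 with total reads (0.17), without 8C replicate 1 (0.025, in a range of -0.52 to 0.025 over samples left out) and without both 8C embryos (0.072). Apart from the loci entered at 0, the cause of these moves was not tested.

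The replicate number as a block left 58 members higher and 2 lower across EGA and changed none of the other counts of calls. The numbers share only a label: of 28 pairs of stages, 1 had same-numbered samples correlated over 0.1, with a median of 0.004. Depth limits members with few reads: 9 with reads could not be tested across EGA.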

Other observations

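Members with reads that could not be tested across EGA were of different kinds. NDUFS7, a core subunit of complex I, had 136 reads in all and at most 1.23 CPM before EGA, ATP5D, the delta subunit of the F1 part, had 122 reads and at most 0.69 CPM before it, and NDUFB7 had 110 reads. Both loci of NDUFV2, a core subunit of complex I that binds an iron-sulfur cluster, had reads almost only in 2C replicate 2, 52 of 54 on the first locus and 32 of 33 on the second.

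The level of NDUFA4L2 was set beside that of NDUFA4. It had 46.1 and 32.8 CPM in CM and 8.84 and 0 CPM in BL, while NDUFA4 had 76.9 and 109 CPM in CM and 127 and 88.1 CPM in BL. NDUFA4L2 held 52.0% of the pooled reads of the pair before EGA, with single samples between 9.09% and 94.4%, and 16.2% after it, with single samples between 0% and 37.5%. Its own change across EGA did not pass the test (log2 change 0.81 ± 0.68, limma adjusted p = 0.30). In the annotation NDUFA4L2 overlaps SHMT2.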
